A study of Mus musculus with 18 samples.

Results

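The 10 genes described here encode enzymes of glycolysis: the hexokinases Hk1 and Hk2, the isomerase Gpi1, the phosphofructokinase subunits Pfkl and Pfkp, the aldolase Aldoa, the triose phosphate isomerase Tpi1, the kinase Pgk1, the mutase Pgam1 and the lactate dehydrogenase subunit Ldha. They were chosen by the gene name of the array's non-control probes, which gave 21 probes for the 10 genes, of 41174 non-control probes on the array. All 21 passed the filter on dim probes, as did 36965 of all probes, and each gene was read from its brightest probe, so that the 10 genes stand among 24959 genes tested.

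Glycolysis turns glucose into pyruvate in the cytosol. Hexokinase traps glucose by phosphorylation, phosphofructokinase makes the committed step, aldolase splits the sugar, the later kinases return ATP, and lactate dehydrogenase turns pyruvate into lactate while restoring NAD+. Mouse pluripotent stem cells are known for a high glycolytic rate, and several of these genes are textbook targets of the hypoxia factor HIF1 and of Myc.

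Gene expression was measured on 18 Agilent arrays that each carried 2 labelled RNAs, so 36 channels in all. The study was about mouse induced pluripotent stem cells (iPSC) deficient for the de novo DNA methyltransferases Dnmt3a and Dnmt3b (clones 8, A6 and B2, 6 channels), and the same 3 clones when they showed signs of differentiation (12 channels). They were set against control iPSC (lines 3, 4, 5 and 6, 12 channels), the mouse embryonic stem cell line V6.5 (ESC, 3 channels) and mouse embryonic fibroblasts (MEF, 3 channels). All iPSC were kept on irradiated MEF feeders and were passaged on gelatin without fresh feeders before RNA was taken. The labels used here do not give the reprogramming factors, the alleles, the passage or the time at which differentiation was seen, and each clone or line is 1 derivation. The undifferentiated clones, ESC and MEF were scanned on the first of 2 scan days (6 arrays), and the differentiating clones and control lines on the second (12 arrays), so scan day cannot be told apart from group when deficient and control iPSC are compared. Differentiating clones shared arrays with control lines, and undifferentiated clones shared arrays with ESC or MEF.

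Between 72.3% and 92.6% of probes in the Cy5 channel and between 69.7% and 88.8% in the Cy3 channel were well above background, and no spot was saturated. The Dnmt3a transcript was lower in the deficient clones than in control iPSC (difference -1.48 on the log2 scale, limma adjusted p = 0.00504), whereas the Dnmt3b transcript did not pass the test (-0.32, adjusted p = 0.596). Where the probes lie relative to the deleted parts is not given in the sources used here, so this is no check of the labels. The list of pluripotency markers had a mean log2 level of 13.79 to 14.09 in the deficient clones, 13.18 to 13.47 in the differentiating clones, 13.33 to 13.59 in the control lines, 14.41 in ESC and 9.9 in MEF. The list of fibroblast and feeder markers averaged 11.06 to 11.13 in the deficient clones, 11.14 to 11.62 in the differentiating clones, 11.68 to 12.41 in the control lines, 10.86 in ESC and 15.44 in MEF. The list of endoderm markers averaged 10.72, 9.19 and 9.23 in deficient clones 8, A6 and B2, 10.99 to 12.07 in the differentiating clones, 9.2 to 10.19 in the control lines, 9.12 in ESC and 10.13 in MEF, so that undifferentiated clone 8 lay above every control line. These arrays measured bulk RNA, in which fewer cells of a type and less RNA per cell cannot be told apart, and the part of these marker levels in the results below was not tested.

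The promoter windows of the 5 enzymes that passed the test between deficient and control iPSC are given below. These genes were called in the comparison that the series' design text names. CpG dinucleotides are the sites that de novo methyltransferases act on, but whether they act on these windows was not tested. Each window is 300 bases of RefSeq sequence (build GRCm38.p6) around an annotated gene start, 5′ to 3′ on the gene's strand. Capitals mark the hypoxia core letters ACGTG or GCGTG on either strand.
Gpi1, chr7:34230287-34230586, minus strand: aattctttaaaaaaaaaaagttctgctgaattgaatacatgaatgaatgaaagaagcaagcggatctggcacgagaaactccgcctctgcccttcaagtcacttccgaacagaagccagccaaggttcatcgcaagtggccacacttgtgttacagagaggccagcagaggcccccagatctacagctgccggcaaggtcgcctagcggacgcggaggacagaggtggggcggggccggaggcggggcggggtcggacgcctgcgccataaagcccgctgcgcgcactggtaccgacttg
Pfkp, chr13:6648722-6649021, minus strand: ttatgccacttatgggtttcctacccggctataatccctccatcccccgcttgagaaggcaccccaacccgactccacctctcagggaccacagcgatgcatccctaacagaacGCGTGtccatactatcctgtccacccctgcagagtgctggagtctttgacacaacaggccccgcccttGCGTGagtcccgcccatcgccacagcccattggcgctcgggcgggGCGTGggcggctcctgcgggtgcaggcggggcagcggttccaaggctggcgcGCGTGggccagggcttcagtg
Tpi1, chr6:124814109-124814408, minus strand: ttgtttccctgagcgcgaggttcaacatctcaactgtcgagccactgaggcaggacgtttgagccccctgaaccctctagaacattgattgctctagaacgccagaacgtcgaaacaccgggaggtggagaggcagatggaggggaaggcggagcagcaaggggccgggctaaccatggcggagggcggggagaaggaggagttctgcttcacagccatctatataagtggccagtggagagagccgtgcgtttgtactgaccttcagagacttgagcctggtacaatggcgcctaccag
Pgk1, chrX:106186850-106187149, plus strand: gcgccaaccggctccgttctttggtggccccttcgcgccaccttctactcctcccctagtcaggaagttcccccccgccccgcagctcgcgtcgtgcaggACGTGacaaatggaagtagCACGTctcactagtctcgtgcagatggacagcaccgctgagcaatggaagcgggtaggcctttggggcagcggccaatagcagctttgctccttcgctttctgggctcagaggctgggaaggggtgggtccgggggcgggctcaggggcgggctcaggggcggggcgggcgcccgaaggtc
Pgam1, chr19:41911621-41911920, plus strand: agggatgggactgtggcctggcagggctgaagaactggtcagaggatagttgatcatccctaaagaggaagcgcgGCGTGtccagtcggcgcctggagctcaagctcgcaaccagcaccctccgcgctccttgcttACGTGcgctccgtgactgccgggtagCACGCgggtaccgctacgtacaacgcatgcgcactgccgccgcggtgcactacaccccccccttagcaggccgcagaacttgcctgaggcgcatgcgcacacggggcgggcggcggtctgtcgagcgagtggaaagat

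The 5 windows held 21, 21, 15, 24 and 30 CpGs in the order printed, against a median of 7 over all 32851 promoter windows of that length. The hypoxia letters occurred 4 times in the Pfkp window, 2 times in that of Pgk1 and 3 times in that of Pgam1, and were not in those of Gpi1 and Tpi1. All 10 enzymes had at least 1 window, 14 in all, and 10 of these 14 held the letters at least once, as did 43.8% of all windows. The E-box CACGTG, which contains ACGTG on both strands and is read by Myc among others, was in 1 of the 14 windows, a window of Ldha, and in 7.2% of all windows. The windows of the 10 genes held 0 to 30 CpGs, the lowest being a window of Aldoa. Those of the enzymes not called held 1 and 20 (Hk1), 25 (Hk2), 20 (Pfkl), 0, 24 and 23 (Aldoa) and 30 and 13 (Ldha). The windows with 0, 1 and 13 CpGs lay below the range of the 5 called enzymes, and the others lay within it. Whether CpG counts go with the calls was not tested. A match of letters is a description of the sequence only, and methylation was not measured in these data.

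Deficient iPSC had lower levels of Gpi1, Tpi1, Pgk1 and Pgam1 and a higher level of Pfkp than control iPSC. Among the 10 enzymes 4 were lower and 1 was higher at an adjusted p under 0.05 (limma on 3 clones against 4 lines, Benjamini-Hochberg over all genes), while 30.9% of all genes tested were lower and 15.3% were higher. The median difference was -0.26 for the enzymes and -0.06 for all genes, both on the log2 scale. The clones and control lines did not overlap for 5 of the 10 enzymes, against 51.9% of all genes. The enzymes' counts were thus near those of all genes, in a comparison in which scan day and group lie together.

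Gpi1, which converts glucose phosphate to fructose phosphate, had log2 levels of 16.59, 16.43 and 16.51 in deficient clones 8, A6 and B2, against 17.23, 17.06, 16.95 and 17.49 in control lines 3, 4, 5 and 6. All 3 clones lay below all 4 control lines, with a difference of -0.67 (SE 0.127, adjusted p = 0.00554). Pgk1, the first ATP-forming enzyme of the pathway, had levels of 16.47, 16.44 and 16.75 in the clones and 17.1, 17.05, 16.92 and 17.35 in the control lines. It too was separated, by -0.55 (SE 0.119, adjusted p = 0.00949). Both enzymes were printed as 10 repeat spots per array, whose log ratios differed on one array with a median SD of 0.0296 for Gpi1 and 0.0336 for Pgk1, which is the noise between spots and not the spread between lines. These probes lie at chr7:31089664-31089723 and chrX:101530787-101530846 in the array design's build mm7.

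Tpi1, which interconverts the triose phosphates, had levels of 15.55, 15.33 and 15.56 in the clones and 16.1, 15.97, 15.86 and 15.64 in the control lines, a difference of -0.42 (SE 0.118, adjusted p = 0.0262). The gap between the lowest control line, line 6, and the nearest clone was small beside the spread within the control lines. Pgam1, the phosphoglycerate mutase, had 16.52, 16.46 and 16.52 in the clones and 16.92, 16.86, 16.75 and 16.6 in the control lines, a difference of -0.28 (SE 0.0792, adjusted p = 0.027). Here the clones were nearly level with each other and line 6 again stood closest to them.

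Pfkp, the platelet-type phosphofructokinase subunit, went the other way, with 12.93, 12.69 and 12.99 in the clones against 12.34, 12.27, 12.26 and 11.99 in the control lines (difference 0.66, SE 0.107, adjusted p = 0.00316). Its probe was designed across chr13:6475782-6477936 (mm7). By the probe used for each gene, Pfkp was also the single member of the 10 whose pluripotent lines split fully by scan day. The clones and ESC of the first day all lay above the differentiating clones and control lines of the second. Some other probes of Hk1, Gpi1 and Pfkp split as well, as given below. Such a split, in either direction, was found in 39.1% of all genes. The liver-type subunit Pfkl did not pass, at 13.34 ± 0.181 in the clones and 13.49 ± 0.263 in the control lines (SD, n = 3 and 4).

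The other 4 enzymes that did not pass were Hk1, Hk2, Aldoa and Ldha. Ldha, which makes lactate, had 16.77, 16.59 and 16.8 in the clones and 17.18, 17.12, 17.19 and 16.75 in the control lines, a difference of -0.34 (SE 0.121, adjusted p = 0.0572). Line 6 fell among the clones. Aldoa differed by -0.23 (SE 0.0846, adjusted p = 0.0615), Hk1 by 0.03 (SE 0.0961) and Hk2, the inducible hexokinase, by 0.04 (SE 0.226). For Hk2 the control lines had 15.92, 15.81, 15.81 and 15.01, so line 6 lay apart from the other control lines.

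Leaving out 1 cell line at a time left the calls of Gpi1, Pgk1 and Pfkp in place. The call of Tpi1 was lost without clone A6 (adjusted p = 0.0915), clone B2 (0.0518), or control line 3 (0.0527), 4 (0.0678) or 5 (0.0523). That of Pgam1 was lost without clone 8 (adjusted p = 0.0577), A6 (0.0884) or B2 (0.0696), or control line 3 (0.0559), 4 (0.0698) or 5 (0.0502). Without control line 6, Ldha (-0.44, adjusted p = 0.00227) and Pfkl (-0.28, adjusted p = 0.0458) were also lower in the clones, and without control line 5 so was Aldoa (-0.29, adjusted p = 0.0302). The line values of one scan day share part of their estimation error (correlation 0.32 between 2 deficient clones, 0.27 between 2 control lines and 0 between a clone and a control line, from the array layout), so the spread between lines understates the error of this comparison. With standard errors widened 1.62 times, the size this has if lines differ by measurement error alone, Pfkp kept its call (adjusted p = 0.041) and Gpi1 (0.0617), Pgk1 (0.0895), Tpi1 (0.171) and Pgam1 (0.174) did not. With no normalization between arrays the calls of Tpi1 (-0.23, adjusted p = 0.143) and Pgam1 (-0.17, adjusted p = 0.133) were lost as well, and Hk1 (0.31, adjusted p = 0.0416) and Aldoa (-0.32, adjusted p = 0.0171) passed. In the same comparison the fibroblast and feeder markers were lower in the clones for 9 of 12 genes and higher for 2, and the part this has in the enzymes' differences was not tested.

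**Figure D1:**
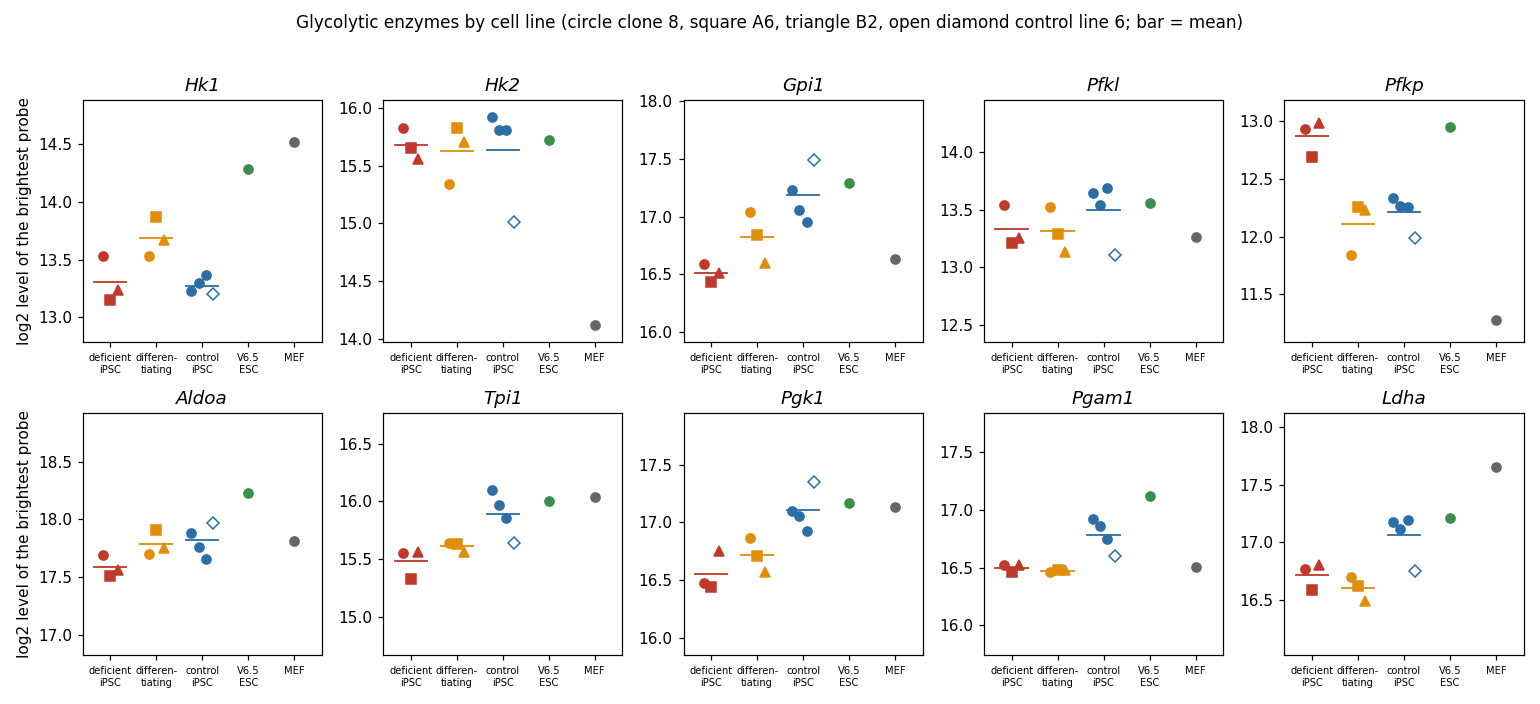
The log2 level of each enzyme's brightest probe is plotted for every cell line, with deficient clones, differentiating clones and control iPSC as points around a bar at the mean, and V6.5 ESC and MEF as single points. All panels span the same number of log2 units, and the deficient clones lie below every control line for Gpi1, Tpi1, Pgk1 and Pgam1 and above every control line for Pfkp.

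Differentiating clones were compared with control lines on the same 12 arrays, which were all scanned on the same day. Hk1 was higher in the differentiating clones (13.53, 13.87 and 13.67 in clones 8, A6 and B2, against 13.23, 13.3, 13.37 and 13.2 in control lines 3, 4, 5 and 6; difference 0.41, SE 0.0859, adjusted p = 0.0488). It was the 1 member of the 10 that passed, where 2.34% of all genes were higher. By limma 0 of the 10 were lower, where 2.59% of all genes were lower. At an unadjusted p under 0.05 by limma 4 were lower. Of the 24959 genes at least 4353 passed that looser threshold in either direction, which is the rank by p of Tpi1, the last of the 4.

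The 4 were Ldha (-0.46, SE 0.12, adjusted p = 0.0798), Pgam1 (-0.31, adjusted p = 0.0741), Pgk1 (-0.39, adjusted p = 0.102) and Tpi1 (-0.29, adjusted p = 0.182). Ldha had 16.7, 16.62 and 16.49 in the differentiating clones, against the control lines' values given above, of which line 6 was the lowest at 16.75. Pgam1 had 16.46, 16.48 and 16.48 in the differentiating clones, below the lowest control line at 16.6. Together with Hk1 these made 5 of 10 enzymes whose lines did not overlap, against 19.6% of all genes. Of the 10 enzymes 9 had a difference below 0, with a median of -0.23, where the median of all genes was 0.

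Control line 6 weighed on this comparison. Without it, Ldha (-0.56, adjusted p = 0.00853), Pgam1 (-0.37, adjusted p = 0.0125) and Tpi1 (-0.37, adjusted p = 0.0222) were lower in the differentiating clones, and the genes called over the whole array numbered 3463 in place of 1231. The call of Hk1 was lost without clone A6 (adjusted p = 0.143), clone B2 (0.144), or control line 3 (0.139), 4 (0.136) or 5 (0.0545). Without A6, B2 or line 3 limma called 0 genes on the whole array, with 3747, 4163 and 4210 at an unadjusted p under 0.05, and without line 4 it called 27. It also rested on 1 of 6 Hk1 probes: the other 5 differed by 0.1, 0.11, 0.09, 0.04 and 0, none of them passing, and the mean of all 6 by 0.13 (adjusted p = 0.109).

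The array ratios of some enzymes differed between the dye orientations. For Ldha the log2 ratio of differentiating clone over control line averaged 0.14 on the 3 arrays with the clone in Cy5, and -1.03 on the 9 arrays with the control line in Cy5. For Aldoa these means were 0.52 and -0.58, with opposite signs, and for Hk2 0.32 and -0.28. Gpi1 (-0.22 and -0.51), Pgk1 (-0.22 and -0.59) and Pgam1 (-0.2 and -0.41) were below 0 in both orientations, and Hk1 was above 0 in both (0.3 and 0.52). The levels and differences above carry a dye term for each probe, and the 3 arrays of one orientation held other lines than the 9, so these means are not a test of the dye alone. Each clone lay on 1 slide, and each slide held the control line in Cy5 on all but 1 of its arrays. Slide means without the dye term thus share a dye orientation, and their likeness between slides is no replication. For clones 8, A6 and B2 Pgam1 averaged -0.33, -0.38 and -0.37, and Ldha -0.64, -0.71 and -0.87. Hk1 averaged 0.35, 0.62 and 0.42. Aldoa averaged -0.4, -0.18 and -0.34, where its difference with the dye term was -0.03 (limma adjusted p = 0.928).

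**Figure D2:**
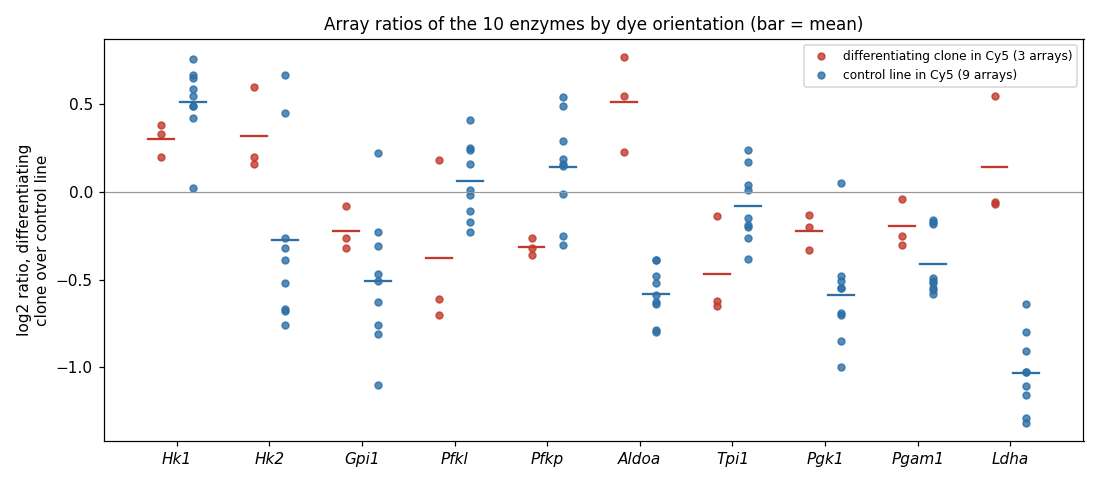
Each point is the log2 ratio of a differentiating clone over a control line on 1 array for each enzyme, with the 3 arrays that held the clone in Cy5 on the left of each gene and the 9 that held the control line in Cy5 on the right, and a bar at the mean. The 2 orientations sit apart for Aldoa and Ldha, with means of 0.52 and 0.14 on the left and -0.58 and -1.03 on the right.

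The same 3 clones were measured in both states, and the within-clone differences were tested against 0. Gpi1 was higher in the differentiating state in all 3 clones (17.04, 16.84 and 16.6 against 16.59, 16.43 and 16.51 when undifferentiated; difference 0.32, SE 0.0883, adjusted p = 0.0437). Pfkp was lower in all 3 (11.84, 12.26 and 12.23 against 12.93, 12.69 and 12.99; difference -0.76, SE 0.136, adjusted p = 0.0151). These were 1 higher and 1 lower member of 10, where 33% of all genes were higher and 19.3% were lower. The 2 states lie on different scan days, which cannot be told apart from the state.

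Unpaired, with the clones as separate groups, Gpi1 no longer passed (adjusted p = 0.0655) and Hk1 did (0.38, adjusted p = 0.0497). The call of Gpi1 was lost without clone 8 (adjusted p = 0.0785) or A6 (0.194), and that of Pfkp without A6 (0.052) or B2 (0.0628). Without clone 8, Hk1 (0.57, adjusted p = 0.00777), Aldoa (0.29, adjusted p = 0.0242) and Hk2 (0.17, adjusted p = 0.0353) were higher, and without B2 so was Pgk1 (0.33, adjusted p = 0.0496). Without A6 limma called 0 genes on the whole array, with 10306 at an unadjusted p under 0.05. With standard errors widened 1.57 times for the shared estimation error, neither Pfkp (adjusted p = 0.0746) nor Gpi1 (0.166) passed. Across this comparison 11 of 12 endoderm markers were higher in the differentiating state, and their part in the enzymes' values was not tested.

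Against V6.5 ESC, scanned on the same arrays, deficient iPSC had lower levels of 6 of the 10 enzymes and higher levels of 0, with 0 higher also at an unadjusted p under 0.05 by limma. Over all genes 1.86% were lower and 3.52% were higher. The members' median difference was -0.58, where that of all genes was 0.03. The 6 were Hk1, Gpi1, Aldoa, Tpi1, Pgk1 and Pgam1, whereas Hk2, Pfkl, Pfkp and Ldha did not pass.

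Hk1 had 13.53, 13.15 and 13.24 in the deficient clones and 14.29 in ESC, a difference of -0.99 (SE 0.128, adjusted p = 0.000353). The size depended on the probe: of the other 5 Hk1 probes 2 were lower, by -0.33 and -0.34, and 3 did not pass (-0.29, 0.02 and -0.06), and the mean of all 6 differed by -0.33 (adjusted p = 0.00248). Aldoa had 17.69, 17.51 and 17.56 in the clones and 18.23 in ESC (-0.67, SE 0.105, adjusted p = 0.00131). Pgam1 had 16.52, 16.46 and 16.52 in the clones and 17.12 in ESC, a difference of -0.64 (SE 0.105, adjusted p = 0.00182). Gpi1 at 17.29 in ESC (difference -0.82, adjusted p = 0.017), Pgk1 at 17.17 (-0.67, adjusted p = 0.0199) and Tpi1 at 16 (-0.53, adjusted p = 0.0254) were likewise above every deficient clone. The second Gpi1 probe, far dimmer at 8.81 in ESC, differed by 0.03 and did not pass (limma adjusted p = 0.839). The second probes of Aldoa (-0.84) and Pgk1 (-0.62) were lower in the clones. Ldha differed by -0.46 (SE 0.146, adjusted p = 0.085), and Hk2, Pfkl and Pfkp by 0.04, -0.16 and -0.03, none passing. ESC was 1 RNA on 3 arrays in 1 dye, so the spread between ESC cultures was not measured. The SE and p-values of this limma test take their spread from all 18 arrays counted singly. Of these, 12 held differentiating clones and control lines, so the p-values do not measure the spread between clones alone.

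Bright probes as a class were lower against ESC. Among the 232 other genes with a mean log2 level of at least 16, a level that 5 of the enzymes reach, 116 were lower and 1 was higher in the deficient clones, with a median difference of -0.34 and a lower quartile of -0.48. In the comparison with control iPSC the same 232 genes had 27 lower and 10 higher, with a median of -0.03 and a lower quartile of -0.14. Gpi1, Aldoa, Pgk1 and Pgam1 lay beyond that lower quartile in both comparisons. The share of the ESC differences that goes with probe brightness was not tested.

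**Figure D3:**
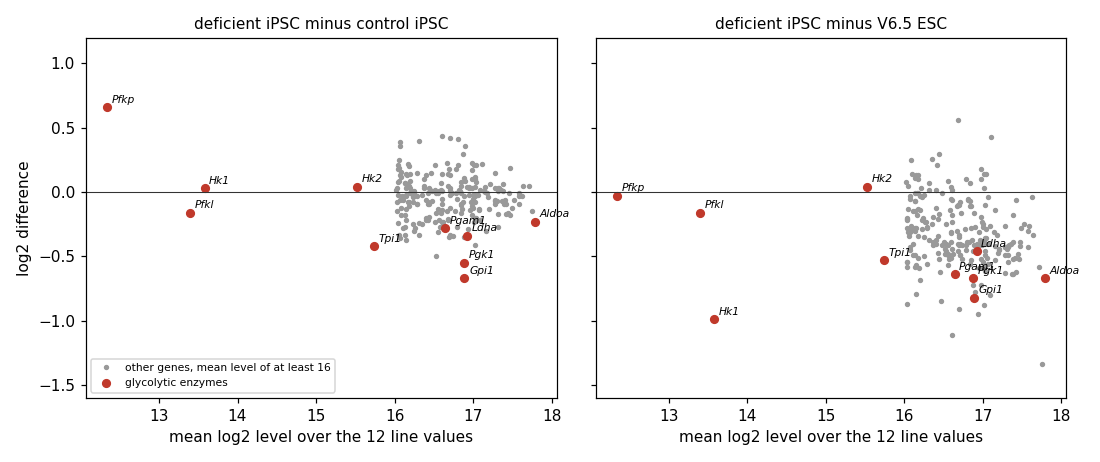
The log2 difference of each enzyme and of 232 other genes with a mean level of at least 16 is plotted against the mean log2 level over the 12 line values, for deficient iPSC against control iPSC on the left and against V6.5 ESC on the right. The grey points centre near 0 on the left (median -0.03) and below 0 on the right (median -0.34). Gpi1 lies below the lowest grey point on the left (-0.67 against -0.5) and above the lowest on the right (-0.82 against -1.34).

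The count against ESC depended on the lines and the signal used. It was 5 of 10 without clone 8, and 3 without A6 or without B2, where Gpi1 (adjusted p = 0.144 and 0.127), Tpi1 (0.208 and 0.12) and Pgk1 (0.168 and 0.0659) were lost; without clone 8 Pgk1 was lost (0.0559). With the scanner's processed signals 2 remained past the threshold, Hk1 and Pgam1. With the deposited log ratios the call of Pgk1 was lost (-0.47, adjusted p = 0.0595). Since ESC was always in Cy5, the dye term came from the other arrays: with no dye term Aldoa differed by -1.22 and Tpi1 by -0.33 (adjusted p = 0.208).

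Against MEF, also on the same arrays, the hexokinases moved in opposite directions. Hk2 had 15.83, 15.65 and 15.56 in the deficient clones against 14.12 in MEF (difference 1.48, SE 0.254, adjusted p = 8.07e-05). Hk1 was lower, with 13.53, 13.15 and 13.24 in the clones against 14.52 in MEF (-1.21, SE 0.128, adjusted p = 3.69e-07). Among the phosphofructokinase subunits Pfkp was higher, with 12.93, 12.69 and 12.99 in the clones against 11.28 in MEF (1.55, SE 0.148, adjusted p = 1.01e-07), whereas Pfkl did not pass (0.02, SE 0.164). Ldha was lower, with 16.77, 16.59 and 16.8 in the clones against 17.65 in MEF, a difference of -0.96 (SE 0.146, adjusted p = 2.3e-05).

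Tpi1 (-0.56, adjusted p = 0.00145) and Pgk1 (-0.52, adjusted p = 0.00856) were also lower in the clones, which made 4 lower and 2 higher members of 10, where 30% of all genes were lower and 28.2% were higher. Gpi1, Aldoa and Pgam1 differed by -0.07, -0.2 and 0.02 and did not pass. The call of Pgk1 was lost without clone 8 (-0.44, adjusted p = 0.0697), and with no dye term those of Pgk1 (-0.34, adjusted p = 0.064) and Ldha (-0.38, adjusted p = 0.258) were lost. MEF was 1 RNA on 3 arrays in 1 dye, and the SE and p-values against it rest on the same spread over arrays as those against ESC.

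**Figure D4:**
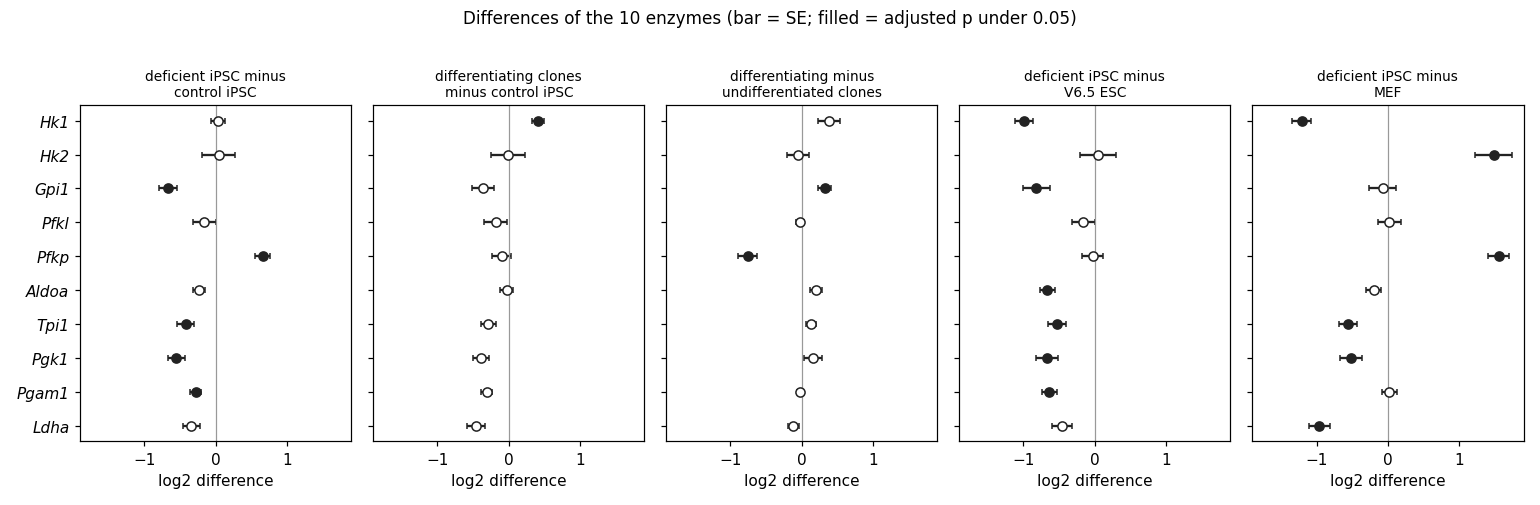
The log2 difference of each enzyme with its standard error is shown for the 5 comparisons, and filled points passed an adjusted p under 0.05. Against control iPSC 4 enzymes were lower and Pfkp was higher, against ESC 6 were lower, and against MEF Hk2 and Pfkp were higher by 1.48 and 1.55.

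Ordered by level, no condition was the same for all enzymes. ESC was the highest of the pluripotent samples for 4 enzymes: Hk1, Aldoa, Pgam1 and Ldha. For Tpi1, Pgk1 and Gpi1 it lay within the range of the control lines, and for Pfkp within that of the deficient clones. MEF was the highest sample for Hk1 and Ldha and the lowest for Hk2 and Pfkp. Averaged over the 10 enzymes after centring each on its own mean, the log2 level was -0.02, -0.22 and -0.09 in deficient clones 8, A6 and B2, -0.11, -0.03 and -0.15 in the differentiating clones, 0.19, 0.11, 0.08 and -0.06 in control lines 3, 4, 5 and 6, 0.39 in ESC and -0.07 in MEF. The deficient and differentiating clones overlapped on this average, and control line 6 lay among them. Line 6 was the lowest control line for 7 enzymes and the highest for the other 3, Gpi1, Aldoa and Pgk1.

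The enzymes followed each other in part. Over the 12 line values Tpi1 and Ldha correlated at Pearson r = 0.868 (0.89 without MEF), Gpi1 and Pgk1 at 0.821 (0.947 without MEF), while Hk2 and Ldha correlated at -0.449 (0.348 without MEF) and Pfkp and Pgk1 at -0.424. Pgam1 was closest to the mean profile (r = 0.952) and Pfkp farthest (0.257). The 5 genes outside all lists whose profile was most like the mean were Hsd17b4 (r = 0.868), Igfbp2 (0.85), Gm6498 (0.843), Kbtbd11 (0.836) and Rpl5 (0.823). These are descriptions over 12 values that share arrays, dyes and scan days.

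Several enzymes had more than 1 probe, and the probes did not always follow each other. Hk1 had 6. The one used lay at log2 levels of 13.15 to 14.52 and did not pass between deficient and control iPSC. But 3 dimmer probes to another transcript record were each higher in the clones, by 0.47, 0.52 and 0.47, and lower in the differentiating state. These 3 split fully by scan day, with the undifferentiated clones and ESC above the differentiating clones and control lines. The other 2 Hk1 probes were well above background in 29 and 34 of 36 channels, and neither passed against control iPSC. The first of them split by scan day the other way. The one used and the 3 that were higher in the clones than in control iPSC were all lower in the deficient clones than in MEF.

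The second probe of Aldoa was lower in the deficient clones than in control iPSC (-0.45, SE 0.0814, adjusted p = 0.00499), with 17.31, 17.17 and 17.18 in the clones and 17.72, 17.64, 17.5 and 17.82 in the control lines. That probe's groups did not overlap, unlike those of the probe used, and it was higher in the differentiating than the undifferentiated state (0.43, SE 0.078, adjusted p = 0.0138). The second Pgk1 probe overlaps the first and gave -0.61. The second Gpi1 probe, at levels of 8.69 to 9.13 where the one used lay at 16.43 to 17.49, gave -0.23. Both were lower in the clones than in control iPSC. A second Pfkp probe was higher in the clones by 0.81, and the dimmest Pfkp probe did not pass (0.18). The second Gpi1 and Pfkp probes also split fully by scan day, the first day lower for Gpi1 and higher for Pfkp. The second Ldha probe differed by -0.01 and did not pass, but it was lower in the differentiating than the undifferentiated state (-0.45, SE 0.09, adjusted p = 0.0182), where the one used gave -0.12 (adjusted p = 0.255).

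The steps that the 10 enzymes leave out were read from Gapdh, Eno1 and Pkm. Eno1, the enolase, had 13.5, 13.57 and 13.67 in the deficient clones and 13.71, 13.49, 13.2 and 13.29 in the control lines, and did not pass (0.16, adjusted p = 0.33). It was lower in the differentiating than the undifferentiated state, at 12.91, 13.1 and 13.01 in clones 8, A6 and B2 (-0.57, SE 0.0531, adjusted p = 0.00456). Pkm, the pyruvate kinase, differed from control iPSC by -0.25 (adjusted p = 0.0603), from ESC by -0.44 (adjusted p = 0.0218) and from MEF by 0.45 (adjusted p = 0.00127). Gapdh was matched through its NCBI gene number to 1 dim probe at levels of 7.64 to 8.39, and differed from control iPSC by 0.16 (adjusted p = 0.107), from MEF by 0.72 (adjusted p = 6.3e-07) and between the states by -0.47 (adjusted p = 0.00621).

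Counts in the lists that follow stand beside the shares of all genes: 30.9% lower and 15.3% higher against control iPSC, 1.86% and 3.52% against ESC, 30% and 28.2% against MEF, and 19.3% and 33% between the states. Of the 18 other isoenzymes and steps of glycolysis, 8 were lower and 1 was higher in deficient than control iPSC, with a median of -0.22. The largest changes were in the brain-type aldolase Aldoc (-1.11, adjusted p = 0.000189), the testis lactate dehydrogenase Ldhc (0.85, adjusted p = 0.0104) and the muscle phosphofructokinase Pfkm (-0.71, adjusted p = 0.000544). Against ESC 5 were lower, led by Aldoc (-1.17, adjusted p = 2.81e-08) and Ldhb (-1.17, adjusted p = 0.00264), and against MEF 6 were higher and 4 lower, led by Ldhc (2.86) and Ldhb (2.6). Between the states 11 were higher and 3 lower in differentiating clones. The hexokinase-domain gene Hkdc1 was higher there by 3.69 (SE 0.416, adjusted p = 0.00592), and by 3.91 against control iPSC (adjusted p = 0.024).

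Among 9 glucose and lactate transporters, 2 were lower in deficient than control iPSC, where 30.9% of all genes were: Slc2a2 (-0.41, adjusted p = 0.00028) and Slc16a7 (-0.32, adjusted p = 0.005). Both were dim, Slc2a2 at log2 levels of 7.97 to 8.47 over all samples and Slc16a7 at 7.18 to 7.62 in the pluripotent samples. Against MEF 5 were higher and 3 lower: the glucose carriers Slc2a3 (2.48, adjusted p = 8.19e-09) and Slc2a1 (1.77, adjusted p = 8.2e-05) and the lactate carrier Slc16a1 (1.73, adjusted p = 1.81e-06) had the largest changes. Of 17 measured regulators of phosphofructokinase and of pyruvate entry, 4 were lower and 3 higher in deficient than control iPSC, near the shares of all genes, with Pfkfb3 (-0.86, adjusted p = 0.0123), Pfkfb4 (-0.7, adjusted p = 0.00264) and Mpc1 (0.62, adjusted p = 0.0298) the largest. Tigar, a fructose bisphosphatase that lowers glycolytic flux, was 2.73 higher than in MEF (adjusted p = 5.73e-11) and was lower in differentiating clones than in control iPSC (-0.58, adjusted p = 0.0256).

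The pentose phosphate list had 3 of 7 measured genes lower in deficient than control iPSC, where 30.9% of all genes were lower, G6pdx (-0.43), Rpe (-0.33) and Tkt (-0.27), and the gluconeogenesis list 2 of 7 higher and 1 lower, led by Fbp2 (0.84, adjusted p = 0.00348). Of 8 hypoxia factors and their regulators 2 were higher, Epas1 (0.96, adjusted p = 0.0048) and Egln2 (0.56, adjusted p = 0.00213), and Arnt was lower (-0.45, adjusted p = 0.0155). Fbp2 and Epas1 were dim, at log2 levels of 7.07 to 8.41 and 7.28 to 8.9 over all samples. Of 13 hypoxia response genes outside glycolysis 4 were lower than in control iPSC, close to the 30.9% of all genes that were: Ero1a (-0.78, adjusted p = 0.00113), Adm (-0.77, adjusted p = 0.0393), Car9 (-0.56) and Bnip3l (-0.54). Their median was -0.34, beside -0.26 for the 10 enzymes and -0.06 for all genes. Against MEF 6 were lower, led by Adm (-3.39), P4ha2 (-3.27) and Ero1a (-2.35).

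The 3 Myc genes did not pass between deficient and control iPSC. Mycn was higher in deficient iPSC than in ESC (0.64, adjusted p = 0.0258) and in MEF (6.62, SE 0.157, adjusted p = 4.55e-15), and Myc was lower than in MEF (-1.83, adjusted p = 5.94e-05) and lower in differentiating clones than in control iPSC (-0.82, adjusted p = 0.0443).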

How the data were processed

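RNA of 18 two-channel Agilent arrays was read from the deposited scanner files. Per the file headers, Agilent Feature Extraction 10.1.1.1 gave the spot intensity values and flags, with no normalization between arrays, and probe positions in build mm7. The submitters' processing notes name limma. The deposited value table holds log2 ratios, which against the scanner files ran as deficient over the other channel (slopes 1.006 to 1.409, medians -0.0108 to 0.00733). Their Pearson r with the ratios from the scanner files was 0.635 to 0.999, and lowest on the ESC arrays of clones A6 (0.635) and B2 (0.789). How they were scaled is not given in the sources used here.

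In limma 3.58.1 (R 4.3.3), intensities were background-corrected (normexp, offset 50), normalized by loess within and Aquantile between arrays, and averaged by probe. Kept were probes that the scanner flagged as well above background in a share of 0.5 or more of any RNA kind's channels. A separate-channel fit (intra-spot correlation 0.769, 12 line terms and dye) gave 1 log2 value per line and state, and a gene took its brightest probe. Lines are the replicates, except in the comparisons with ESC and MEF. Whether repeat arrays of a line are separate cultures is not stated. limma (lmFit, eBayes) compared lines, with clones paired between their states because the labels name the same clones. Differences from ESC and MEF came from the log ratios with a dye term. P-values were adjusted by Benjamini-Hochberg over 24959 genes. The fits were tested on simulated data; the number of arrays limits the precision.

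The enzymes, lists and tests were chosen with earlier results of these data known. Named besides the enzymes are Gapdh, Eno1 and Pkm, up to 3 called genes of largest change per list, and the 5 genes most like the mean profile. Pdp2 and Rpia were not analysed here.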

Additional observations from a re-analysis of the deposited data

Results flagged for a closer look

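Hk2 in control line 6 had a log2 level of 15.01, set apart from the other control lines at 15.92, 15.81 and 15.81 by most of the range of the group (Dixon ratio 0.879). Ldha in control line 6 had 16.75, below the other control lines at 17.18, 17.12 and 17.19 (Dixon ratio 0.841). Chance flags about 1 in 20 groups of 4, and 13 genes were examined in these lines.

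For Gpi1 the difference from control iPSC was not the same in the undifferentiated and differentiating clones: the change between the states was 0.32 (adjusted p = 0.0437, higher in 3 of 3 clones). For Pfkp that change was -0.76 (adjusted p = 0.0151, lower in 3 of 3 clones). The states lie on different scan days, which cannot be told apart from them, and both calls were lost when single clones were left out.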

How the results depend on the processing

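Between deficient and control iPSC the counts of lower enzymes ranged over 2 to 6 when 1 line was left out, and with widened standard errors, an alternative chosen after seeing the data, 0 were lower and 4963 genes were called, against 11527. With no normalization between arrays 2 enzymes were higher and 19382 genes were called, and with the mean of all probes 2 enzymes were higher; with probes above background in every channel 7650 genes were called. Between differentiating clones and control iPSC, Hk1 was no longer called, which left 0 higher, with no normalization between arrays, scanner signals, no filter on dim probes, the mean of all probes or the deposited value table, where 1 was higher at an unadjusted p under 0.05 in each. Leaving out 1 line there gave 0 to 1 higher, 0 to 3 lower and 0 to 3463 genes called, against 1231.

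Between the states, leaving out 1 clone gave 0 to 3 higher, 0 to 1 lower and 0 to 14520 genes called, against 13058. With no replicate block, clones unpaired, 1 was higher, 1 was lower and 12743 genes were called. There 0 were higher with scanner signals, with no dye term or with widened standard errors; 3 were lower with no normalization between arrays (20389 genes called), 2 with no dye term, 2 with the mean of all probes (2 higher) and 0 with widened standard errors (5488 genes called). Against ESC, leaving out 1 clone gave 3 to 5 lower and 381 to 1435 genes called, against 1343; scanner signals gave 2 lower and 3503 genes called, and 3700 genes were called from the deposited log ratios. Against MEF 2 were lower with no dye term.

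Differences that changed sign did not pass under either setting, except Hk2 between the states without clone 8, which then passed (0.17, adjusted p = 0.0353). Against control iPSC they were, for deficient clones, Pfkl without normalization between arrays (0.11), Hk1 (-0.09) and Hk2 (-0.01) with scanner signals, Hk2 with no dye term (-0.02), Hk1 (-0.08) and Hk2 (-0.03) without clone 8, and Hk2 without control line 6 (-0.17; 0.14 without line 3, the highest). For differentiating clones they were Pfkp with no dye term (0.03), Hk2 (0.13), Pfkp (0.03; -0.18 without A6, the lowest) and Aldoa (0.01) without clone 8, Aldoa without line 6 (0.02), and Hk2 without line 3 (0.08), 4 (0.05) or 5 (0.05; -0.22 without line 6, the lowest). Between the states they were Tpi1 without normalization between arrays (-0.07), Hk1 with the mean of all probes (-0.1), and Pfkl with no dye term (0.04) or without clone B2 (0.03). Against ESC they were Pfkp with the mean of all probes (0.15), no dye term (0.2) or no clone A6 (0.02; -0.06 without B2, the lowest), Hk2 with no dye term (-0.26) or no clone 8 (-0.08; 0.1 without B2, the highest), and Pfkl with no dye term (0.05). Against MEF they were Gpi1 with scanner signals (0.06), the mean of all probes (0) or no dye term (0.07), Pfkl with no dye term (-0.2) or no clone 8 (-0.08), Aldoa with no dye term (0.35), and Pgam1 without clone B2 (-0.01).

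Slide as a block could not be fitted between deficient and control iPSC, which share no slide; between differentiating clones and control iPSC it changed no call. ESC and MEF were each 1 RNA in 1 dye, so their differences rest on a dye term taken from other arrays. Lines of one scan day share estimation error, and scan day cannot be told apart from group between deficient and control iPSC or between the states.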
